A study of Bos taurus with 18 samples.

Results

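The genes described here are 43 that copy DNA or supply its building blocks, from the origin-binding and helicase proteins to the polymerases, the clamp, the nucleotide enzymes, replication-coupled chromatin factors and a pair of E2F transcription factors. They were chosen by name from a bovine endometrial count table of 38001 rows. Each of the 43 symbols stood on 1 row. All 43 passed the filter on low counts that left 19638 genes for testing. Endometrial cells were brushed from the uterine horn next to the ovary bearing the corpus luteum in 6 Holstein cattle (Bos taurus), and poly(A) RNA was sequenced. The 17-OHPC/P4 arm (animals A, B and C) was sampled on day 7 of a cycle with 1 depot injection of 100 mg of 17α-hydroxyprogesterone caproate and 10 mg of progesterone on day 4, and before that on day 7 and on day 4 of an untreated cycle. The P4 arm (animals D, E and F) was sampled likewise, with 100 mg of progesterone (P4) injected on day 4 of the treated cycle. All cycles of all groups, controls included, were synchronized by the Ovsynch protocol, and day 0 was the day of estrus. Each of the 6 groups thus holds 1 library from each of 3 animals, and the same animal gave all 3 conditions of its arm. The treated cycle always followed the untreated one, so treatment and cycle order cannot be told apart. The compound 17-OHPC is a caproate ester, a long-acting synthetic progestin, while P4 is the hormone of the corpus luteum itself.

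DNA replication is prepared by licensing. The origin recognition complex, with CDC6 and CDT1, loads the ring of MCM2 to MCM7 proteins onto DNA, and CDC45 and the GINS complex then turn that ring into the moving helicase. Primase and polymerase alpha start each strand, polymerases delta and epsilon extend it on the sliding clamp PCNA, and ribonucleotide reductase, thymidylate synthase and thymidine kinase keep up the supply of deoxynucleotides. Many of these genes are switched on together by E2F factors as a cell enters S phase, and in the mouse uterus estrogen is known to drive epithelial cells into division and progesterone to halt it.

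The libraries held 29347255 to 40733544 counts, and the smallest count of any member in any library was 9. Levels are given as CPM, counts scaled to the library total after TMM adjustment, and are not corrected for gene length, so levels are compared between samples and not between genes. The 6 epithelial markers summed to 2109 to 3792 CPM on treated day 7, 2499 to 3682 CPM on control day 7 and 2701 to 4197 CPM on day 4, and none was at 0 in any library. Epithelial markers were thus present throughout, and those of other cells varied more. The 6 stromal markers summed to between 60.4 and 5589.5 CPM over the 18 libraries, a wide range. In animal C 3 red blood cell markers reached 359 CPM on treated day 7, 4168 CPM on control day 7 and 2384 CPM on day 4, against at most 5.64 CPM in any library of the others. In such bulk samples, fewer cells of a type and less RNA per cell cannot be told apart.

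The 43 members together were highest on day 4 and lay close together on day 7 of either cycle. Their summed level averaged 859.5 ± 68.4 CPM on treated day 7, 908 ± 116 CPM on control day 7 and 1512 ± 516 CPM on day 4 (SD, n = 6 each). On treated day 7 the sums ran from 749.8 CPM in animal D to 965 CPM in animal C, and on control day 7 from 780.0 CPM in animal D to 1073 CPM in animal F. On day 4 they ran from 947 CPM in animal B to 2419 CPM in animal E. The highest sum was 1.29 times the lowest on treated day 7, 1.38 times on control day 7 and 2.55 times on day 4. The day 4 library of animal E held the highest value of 33 of the 43 members, and that of animal B, the lowest of the day 4 libraries in sum, lay within the range of day 7.

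**Figure D1:**
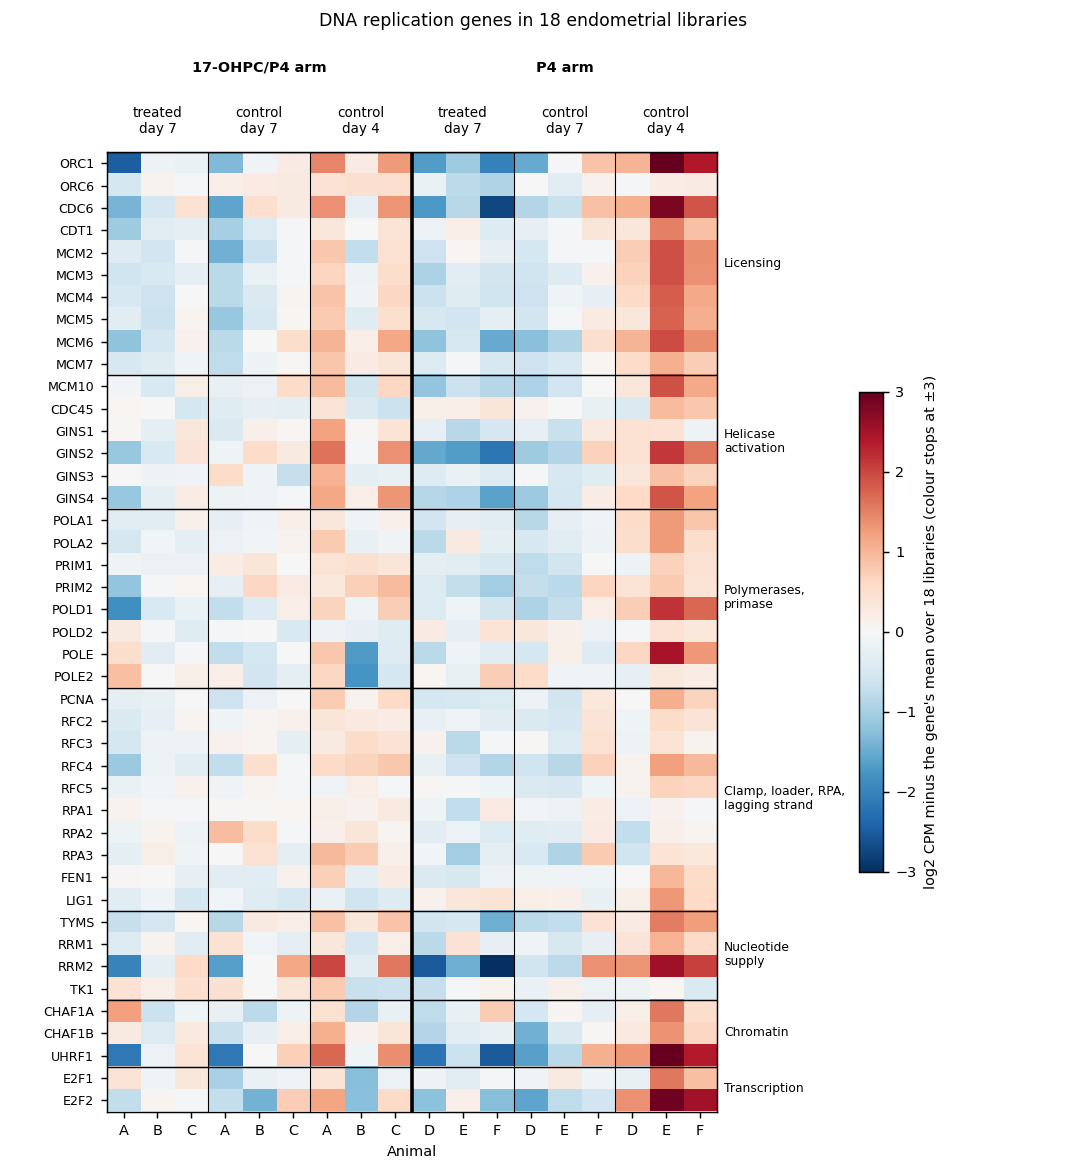
Level of each of the 43 genes (rows, grouped by role) in each of the 18 libraries (columns, by arm, condition and animal), coloured by its log2 CPM minus the mean of that gene over the 18 libraries, with colours stopping at 3 in either direction. Day 4 columns are mostly red, with animal E the deepest and animal B mostly pale, and the treated and control day 7 columns are mostly blue or pale.

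Between the day 4 and day 7 libraries of the untreated cycle, 17 of the 43 genes passed the test, all of them lower on day 7. Over both arms, 17 fell and 0 rose at an edgeR adjusted p under 0.05, where 4.28% of all 19638 genes tested fell and 6.27% rose. Of the 43, 40 had a lower estimate on day 7, and the median log2 fold change was -0.73, against -0.05 over all genes tested. The fall was most frequent among the licensing genes, with 8 of 10 past the test, against 2 of 6 for helicase activation. Past the test were also 2 of 8 for polymerases and primase, 2 of 10 for clamp, loader and lagging strand genes, 1 of 4 for nucleotide supply, 1 of 3 for chromatin and 1 of 2 for transcription factors. These shares were not tested against each other. The count changed when single libraries were left out. Without the control day 7 library of animal D it was 5, of A 6, of E 8, of B 10 and of F 26. Leaving out the day 4 library of animal E gave 6, of C 8 and of F 8. When animal A was left out on day 4, 11 fell and 1, TK1, rose (log2 fold change 0.52, adjusted p = 0.0475). Leaving out whole animals gave 4 without animal A, 6 without B, 9 without C, 6 without D, 1 without E and 19 without F. Calls over all genes in these refits, and in the alternative fits below, are not given. From the member counts alone, a general change in calls cannot be told apart from one particular to the members.

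**Figure D2:**
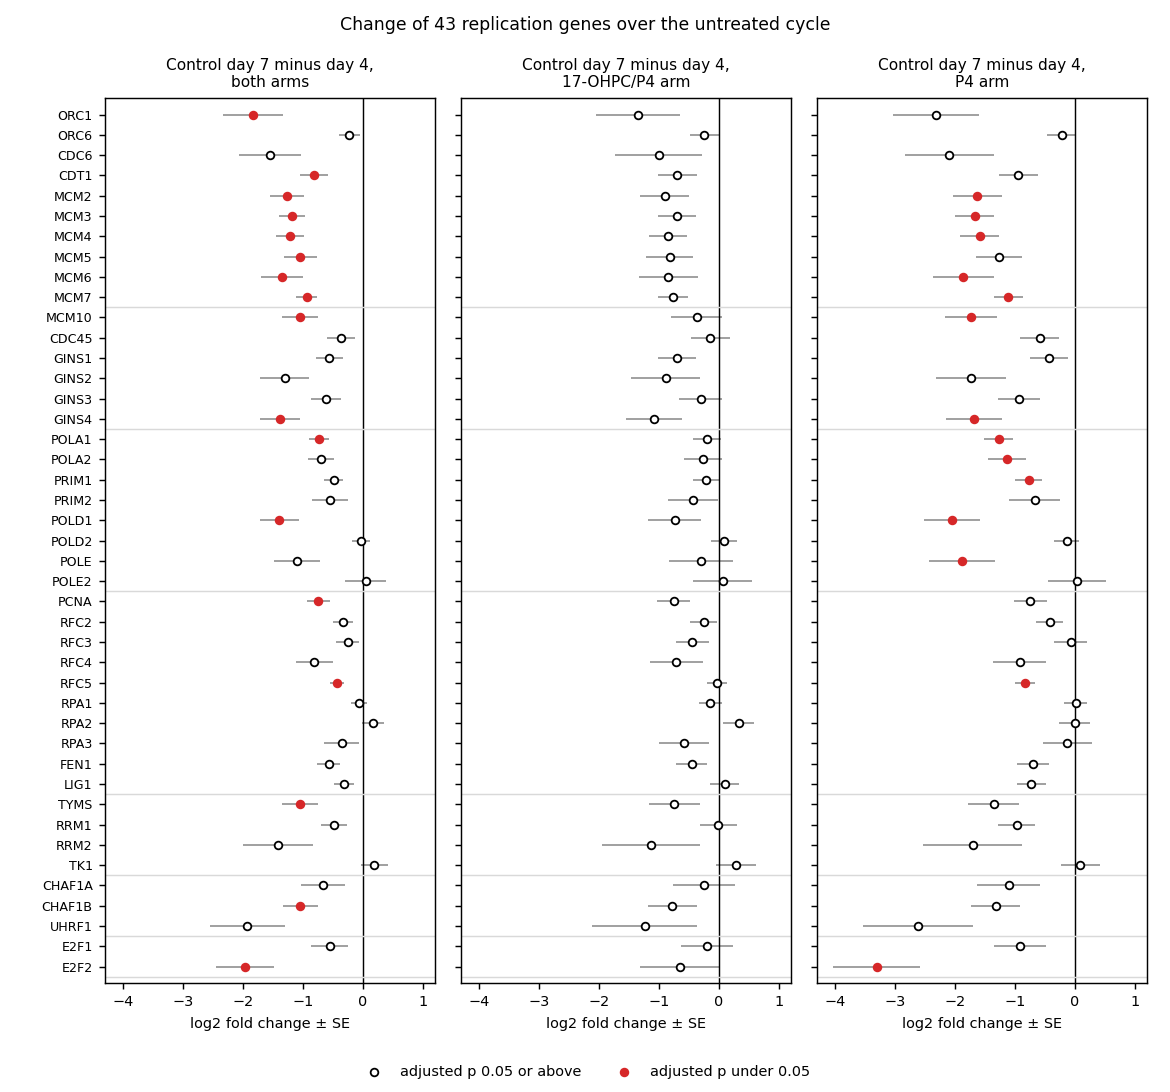
Log2 fold change on day 7 against day 4 of the untreated cycle for each gene, with its standard error as a bar, over both arms and within each arm, where filled red points passed an adjusted p of 0.05. Points lie mostly left of 0 in every panel, with 17 filled over both arms and 14 for P4 alone, and 0 for 17-OHPC/P4.

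The 4 smallest p values belonged to licensing genes, MCM7, MCM4, MCM3 and MCM2. MCM7, a subunit of the replicative helicase ring and the member with the highest mean CPM, had 73.2, 79.4 and 95.5 CPM on treated day 7, 60.6, 91.5 and 105 CPM on control day 7 and 182, 122 and 132 CPM on day 4 in animals A, B and C. In animals D, E and F it had 76.8, 99.7 and 72.98 CPM on treated day 7, 66.2, 74.7 and 106 CPM on control day 7 and 149, 214 and 169.6 CPM on day 4. In each arm every control day 7 library and every treated library lay below every day 4 library, and MCM7 fell by 0.94 ± 0.17 (SE, adjusted p = 0.00539) on the log2 scale over the control cycle. MCM4, another subunit of the ring, had 20.2, 26.4, 37.3, 23.1, 32.2 and 30.01 CPM on control day 7 and 64.2, 32.7, 54.1, 52.98, 125 and 77.5 CPM on day 4 in animals A to F. It was lower in each of the 6 animals, fell by 1.22 ± 0.23 (SE, adjusted p = 0.00547), and passed the test under each of the 28 alternatives tried, with adjusted p of at most 0.0423. MCM3, also of the ring, fell by 1.18 ± 0.22 (SE, adjusted p = 0.00578) and lost the test only without animal E (adjusted p = 0.0526).

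MCM2, the ring subunit that also handles histones, had 34.1, 29.7 and 43.3 CPM on treated day 7, 16.3, 28.4 and 43.4 CPM on control day 7 and 78.02, 26.5 and 60.6 CPM on day 4 in animals A, B and C. In animals D, E and F it had 28.7, 46.03 and 37.3 CPM on treated day 7, 30.8, 42.9 and 42.7 CPM on control day 7 and 73.5, 169.7 and 116 CPM on day 4. The P4 arm showed a clear gap between day 7 and day 4, whereas in the 17-OHPC/P4 arm animal B was slightly lower on day 4 than on control day 7. MCM2 fell by 1.27 ± 0.29 (SE, adjusted p = 0.0148). MCM6 had 9.15, 14.9 and 23.2 CPM on treated day 7, 12.1, 21.2 and 30.9 CPM on control day 7 and 43.2, 24.6 and 47.5 CPM on day 4 in animals A, B and C. In animals D, E and F it had 9.15, 15.3 and 7.47 CPM on treated day 7, 8.95, 11.4 and 29.6 CPM on control day 7 and 42.9, 82 and 56.3 CPM on day 4. It was lower on control day 7 than on day 4 in all 6 animals and fell by 1.35 ± 0.35 (SE, adjusted p = 0.0254), although animal C on control day 7 stood above animal B on day 4. MCM5 fell by 1.04 ± 0.27 (SE, adjusted p = 0.0261) and was also lower in 6 of 6 animals.

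Of the origin-side loaders, ORC1 and CDT1 fell. ORC1, the largest subunit of the origin recognition complex, had 0.384, 1.92 and 1.86 CPM on treated day 7, 0.847, 1.999 and 2.55 CPM on control day 7 and 5.94, 2.55 and 5.21 CPM on day 4 in animals A, B and C. In animals D, E and F it had 0.669, 1.02 and 0.525 CPM on treated day 7, 0.752, 2.04 and 3.86 CPM on control day 7 and 4.35, 17.6 and 11.3 CPM on day 4. Day 7 values of both cycles lay below all day 4 values within each arm, narrowly so between animal C on control day 7 and animal B on day 4, and over the control cycle ORC1 fell by 1.83 ± 0.50 (SE, adjusted p = 0.0322). CDC6, which helps the complex load the MCM ring, had 0.704, 1.31 and 2.55 CPM on treated day 7, 0.621, 2.63 and 2.23 CPM on control day 7 and 4.78, 1.56 and 4.64 CPM on day 4 in animals A, B and C. In animals D, E and F it had 0.563, 1.05 and 0.278 CPM on treated day 7, 1.003, 1.18 and 3.44 CPM on control day 7 and 3.87, 13.2 and 6.91 CPM on day 4. CDC6 was higher on control day 7 than on day 4 in animal B alone, and its log2 fold change of -1.55 ± 0.52 (SE, adjusted p = 0.0705) missed the threshold. CDT1, its partner in loading, fell by 0.82 ± 0.23 (SE, adjusted p = 0.0355), with day 7 below day 4 in all 6 animals. ORC6, a small subunit of the complex, had the smallest estimate among licensing genes, at -0.23 ± 0.17 (SE, adjusted p = 0.435).

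Among helicase activation genes, GINS4 and MCM10 fell. GINS4, a subunit of the GINS complex and the member with the lowest mean CPM, had 0.896, 1.62 and 2.30 CPM on treated day 7, 1.78, 1.82 and 1.91 CPM on control day 7 and 4.45, 2.27 and 4.96 CPM on day 4 in animals A, B and C. In animals D, E and F it had 1.09, 1.05 and 0.648 CPM on treated day 7, 0.931, 1.39 and 2.30 CPM on control day 7 and 2.999, 7.28 and 4.55 CPM on day 4. Control day 7 lay below day 4 within each arm, and GINS4 fell by 1.38 ± 0.33 (SE, adjusted p = 0.0185). MCM10, which helps start the assembled helicase, fell by 1.05 ± 0.31 (SE, adjusted p = 0.0413). GINS2 reached -1.31 ± 0.41 (SE, adjusted p = 0.0549) without passing. CDC45, which joins the MCM ring in the active helicase, had 14.3, 13.6 and 9.45 CPM on treated day 7, 10.6, 11.5 and 11.3 CPM on control day 7 and 17.96, 10.1 and 8.78 CPM on day 4 in animals A, B and C. The P4 arm had 15.5, 15.6 and 17.7 CPM on treated day 7, 14.9, 13.8 and 11.6 CPM on control day 7 and 10.1, 26.4 and 23.9 CPM on day 4 in animals D, E and F. Control day 7 and day 4 overlapped in both arms, and its estimate of -0.36 ± 0.23 (SE, adjusted p = 0.343) did not pass the test.

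The polymerases did not move as 1 block. POLD1, the catalytic subunit of polymerase delta, had 10.3, 13.2, 19.9, 9.13, 10.6 and 19.7 CPM on control day 7 and 27.6, 15.7, 28.98, 28.8, 77.6 and 57.1 CPM on day 4 in animals A to F, and fell by 1.39 ± 0.32 (SE, adjusted p = 0.0151). It was lower in all 6 animals, while POLD2, the accessory subunit of the same enzyme, stood at -0.03 ± 0.15 (SE, adjusted p = 0.935). POLA1, the catalytic subunit of polymerase alpha, fell by 0.73 ± 0.17 (SE, adjusted p = 0.0149), and its partner POLA2 reached -0.70 ± 0.22 (SE, adjusted p = 0.0570). PRIM1, the catalytic subunit of primase, reached -0.49 ± 0.16 (SE, adjusted p = 0.0613) and passed with the animal as a block (-0.49, adjusted p = 0.0486). POLE2, an accessory subunit of polymerase epsilon, had 11.8, 6.27 and 7.15 CPM on treated day 7, 7.26, 4.21 and 5.18 CPM on control day 7 and 9.71, 1.84 and 4.39 CPM on day 4 in animals A, B and C. In animals D, E and F it had 6.54, 5.37 and 10.5 CPM on treated day 7, 9.20, 5.89 and 5.88 CPM on control day 7 and 5.30, 7.85 and 7.29 CPM on day 4. The conditions overlapped in each arm, although within animals A, B, C and F treated day 7 was the highest, and within D and E it was not. POLE2 was 1 of the 3 members with a higher estimate on control day 7 than on day 4, at 0.05 ± 0.34 (SE, adjusted p = 0.948). The catalytic subunit POLE stood at -1.09 ± 0.38 (SE, adjusted p = 0.0803).

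Of the clamp, its loader and the lagging strand genes, PCNA and RFC5 fell. PCNA, the sliding clamp, had 32.1, 33.04 and 38.9 CPM on treated day 7, 25.3, 34.04 and 38.2 CPM on control day 7 and 65.6, 41.3 and 57.2 CPM on day 4 in animals A, B and C. In animals D, E and F it had 26.7, 27.6 and 29.3 CPM on treated day 7, 34.1, 26.2 and 48.3 CPM on control day 7 and 38.1, 82.1 and 61.2 CPM on day 4. It was lower on control day 7 than on day 4 in every animal and fell by 0.75 ± 0.19 (SE, adjusted p = 0.0254), although animal F on control day 7 was above animal D on day 4. RFC5, a subunit of the loader that opens the clamp, fell by 0.43 ± 0.12 (SE, adjusted p = 0.0318). Its log2 fold change was -0.04 ± 0.17 (SE) in animals A, B and C and -0.82 ± 0.17 (SE) in animals D, E and F. The single-strand binding subunits RPA1 and RPA2 stayed without a call, at -0.06 ± 0.13 (SE, adjusted p = 0.809) and 0.16 ± 0.18 (SE, adjusted p = 0.624), and so did the nuclease FEN1 at -0.57 ± 0.19 (SE, adjusted p = 0.0630) and the ligase LIG1 at -0.31 ± 0.17 (SE, adjusted p = 0.247).

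In nucleotide supply, thymidylate synthase fell and thymidine kinase did not pass. TYMS, which makes thymidylate, had 8.09, 9.25 and 13.7 CPM on treated day 7, 7.42, 15.9 and 15.04 CPM on control day 7 and 24.1, 16.6 and 23.7 CPM on day 4 in animals A, B and C. In animals D, E and F it had 9.01, 9.29 and 4.79 CPM on treated day 7, 7.63, 7.93 and 17.8 CPM on control day 7 and 15.7, 38.3 and 31.2 CPM on day 4. TYMS was lower on control day 7 in all 6 animals, and fell by 1.05 ± 0.30 (SE, adjusted p = 0.0389). RRM2, the small subunit of ribonucleotide reductase, had 2.24, 7.43 and 13.4 CPM on treated day 7, 2.85, 8.83 and 19.8 CPM on control day 7 and 35.7, 7.07 and 26.5 CPM on day 4 in animals A, B and C. The P4 arm had 1.55, 3.25 and 1.11 CPM on treated day 7, 5.87, 5.20 and 23.1 CPM on control day 7 and 22.1, 52.03 and 37.01 CPM on day 4 in animals D, E and F. Day 4 values reached the highest levels in 5 of 6 animals, but animal B went the other way, and the log2 fold change of RRM2 was -1.42 ± 0.58 (SE, adjusted p = 0.131). The large subunit RRM1 stood at -0.49 ± 0.22 (SE, adjusted p = 0.161). TK1, the cytosolic thymidine kinase, had 50.3, 41.7 and 52.8 CPM on treated day 7, 50.6, 37.2 and 47.6 CPM on control day 7 and 63.9, 23.2 and 23.8 CPM on day 4 in animals A, B and C. In animals D, E and F it had 23.05, 35.9 and 39.9 CPM on treated day 7, 32.5, 41.1 and 33.01 CPM on control day 7 and 33.2, 38.98 and 27.5 CPM on day 4. Its values overlapped across all conditions, with the highest estimate of the 43 for day 7 over day 4, at 0.19 ± 0.23 (SE, adjusted p = 0.651). The day 4 library of animal A lowered that estimate. Without this library the estimate was 0.52 and passed the test (adjusted p = 0.0475).

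Of the chromatin factors and E2Fs, CHAF1B and E2F2 fell. UHRF1, which recruits the maintenance DNA methyltransferase to newly copied DNA, had 2.81, 11.1 and 16.6 CPM on treated day 7, 2.85, 12.6 and 20.7 CPM on control day 7 and 41.1, 11.5 and 32.9 CPM on day 4 in animals A, B and C. In animals D, E and F it had 2.71, 8.02 and 2.19 CPM on treated day 7, 4.05, 7.10 and 26.1 CPM on control day 7 and 31.1, 132 and 65.3 CPM on day 4. Its 18 values ran over a 60.4-fold range, the widest of the 43, and its log2 fold change of -1.93 ± 0.63 (SE, adjusted p = 0.0647) missed the threshold but passed with the animal as a block (-2.13, adjusted p = 0.0365). CHAF1B, a subunit of the chromatin assembly factor that places histones behind the fork, fell by 1.05 ± 0.29 (SE, adjusted p = 0.0331). E2F2, an activator of replication genes, fell by 1.98 ± 0.48 (SE, adjusted p = 0.0197), with 1.36, 0.835, 3.75, 0.752, 1.32 and 1.51 CPM on control day 7 and 5.04, 0.934, 3.35, 5.80, 16.9 and 12.9 CPM on day 4 in animals A to F. Its related factor E2F1 had 11.9, 8.42 and 11.6 CPM on treated day 7, 4.69, 7.94 and 8.37 CPM on control day 7 and 12.2, 3.80 and 8.09 CPM on day 4 in animals A, B and C. The P4 arm had 8.23, 7.20 and 8.74 CPM on treated day 7, 8.52, 11.01 and 8.34 CPM on control day 7 and 7.82, 27.5 and 17.2 CPM on day 4 in animals D, E and F. Its day 7 and day 4 values overlapped in both arms, and its log2 fold change was -0.55 ± 0.31 (SE, adjusted p = 0.266).

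**Figure D3:**
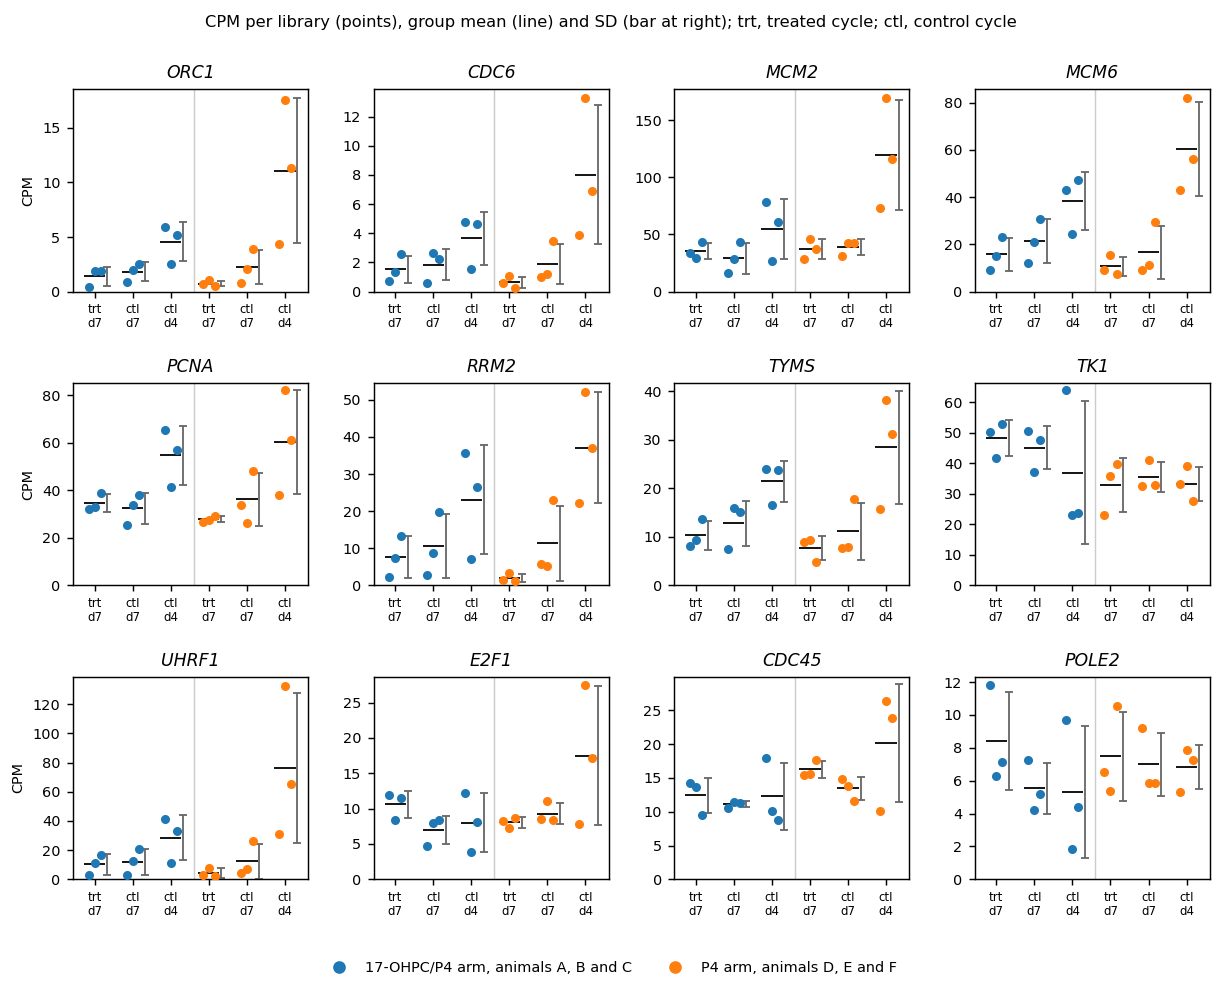
CPM of 12 replication genes in each library, with the treated cycle on day 7 (trt d7), the control cycle on day 7 (ctl d7) and on day 4 (ctl d4) for the 17-OHPC/P4 arm at left and the P4 arm at right of each panel. Points are animals, lines group means and bars the SD of 3 animals, and in most panels the day 4 group of the P4 arm is the highest and the most spread, while TK1 and POLE2 overlap throughout.

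The change over the untreated cycle differed in size between animals. The median log2 change of the 43 genes was -1.30 in animal A, -0.06 in B, -0.36 in C, -0.71 in D, -1.57 in E and -0.81 in F, where the median over all genes tested lay between -0.11 and 0.01. Lower on day 7 were 38 members in animal A, 24 in B, 34 in C, 34 in D, 42 in E and 36 in F. Animal B was thus near no change, and animal E the most changed. Lower in all 6 animals were 16 members, or ORC1, CDT1, MCM3 to MCM7, GINS4, PRIM1, POLD1, PCNA, RFC2, RFC4, FEN1, TYMS and CHAF1B, where 9.02% of all genes were.

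**Figure D4:**
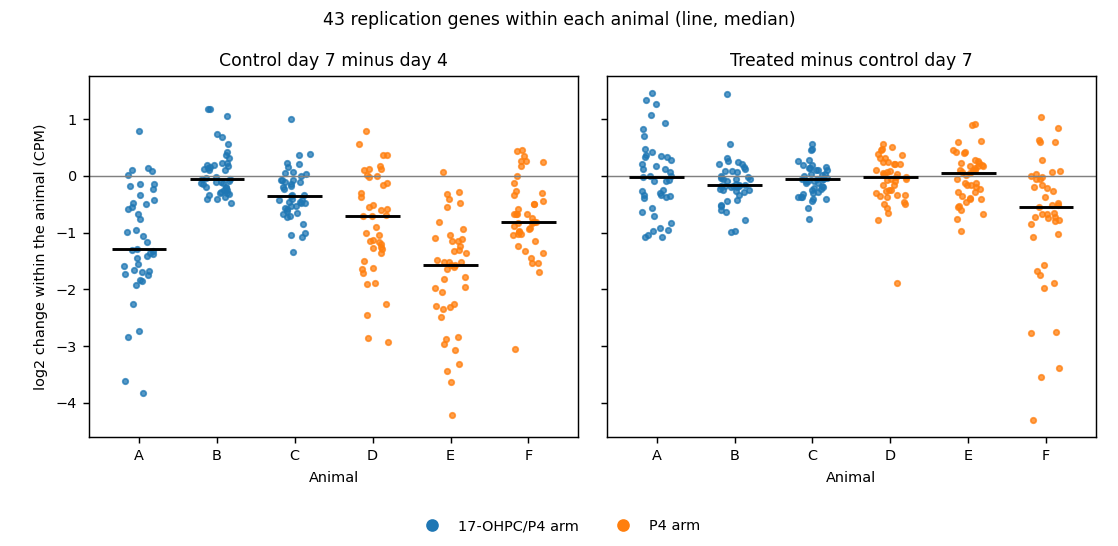
Log2 change in CPM of each of the 43 genes (points) within each animal, control day 7 minus day 4 at left and treated minus control day 7 at right, with the median as a line. The day medians run from -1.57 in animal E to -0.06 in animal B, and the treatment medians from -0.54 in animal F to 0.06 in animal E.

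Within arms, the fall over the untreated cycle passed the test in the P4 arm alone, before any injection had been given. In the 17-OHPC/P4 arm 0 members were called (DESeq2 also called 0), where 0% of all genes fell and 0.0407% rose. Of the 43, 38 were lower there, with a median of -0.45, against -0.06 over all genes tested. The smallest p values there were those of MCM7 at -0.76 ± 0.25 (SE, adjusted p = 0.285) and PCNA at -0.75 ± 0.27 (SE, adjusted p = 0.363). Next came MCM4 at -0.85 ± 0.32 (SE, adjusted p = 0.384) and GINS4 at -1.08 ± 0.47 (SE, adjusted p = 0.480). In the P4 arm 14 fell and 0 rose, where 4.00% of all genes fell and 4.64% rose. Without overlap, 23 members lay below their day 4 values in the P4 arm, where 18.0% of all genes did and 16.1% lay above. In the 17-OHPC/P4 arm 11 did, where 6.54% of all genes lay below and 7.10% above. In the P4 arm 40 of 43 were lower, with a median of -0.97, against -0.01 over all genes tested. The 10 with the smallest p were POLA1 at -1.27 ± 0.24 (SE, adjusted p = 0.00900), MCM3 at -1.67 ± 0.32 (SE, adjusted p = 0.00981) and RFC5 at -0.82 ± 0.17 (SE, adjusted p = 0.0120). Next came MCM4 at -1.58 ± 0.32 (SE, adjusted p = 0.0124), E2F2 at -3.31 ± 0.72 (SE, adjusted p = 0.0159) and MCM7 at -1.11 ± 0.25 (SE, adjusted p = 0.0172), followed by POLD1 at -2.05 ± 0.46 (SE, adjusted p = 0.0175) and MCM2 at -1.63 ± 0.41 (SE, adjusted p = 0.0283). MCM10 at -1.73 ± 0.44 (SE, adjusted p = 0.0283) and MCM6 at -1.86 ± 0.51 (SE, adjusted p = 0.0361) closed the 10. The other four were GINS4, POLA2, PRIM1 and POLE. Leaving out the control day 7 library of animal D gave 0 calls, of E 4 and of F 23. Leaving out the day 4 library of animal E gave 0 and of F 3, and DESeq2 gave 23.

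Whether the arms differed in this change was tested directly. The difference of the changes called 0 members and 0% of all genes, also by DESeq2. Its smallest p values were those of RFC5 at 0.79 ± 0.24 (SE, adjusted p = 0.535) and POLA1 at 1.08 ± 0.34 (SE, adjusted p = 0.540). E2F2 followed at 2.66 ± 0.95 (SE, adjusted p = 0.558) and LIG1 at 0.82 ± 0.33 (SE, adjusted p = 0.593). The arms already differed on day 4 in LIG1, the ligase that seals lagging strand fragments, with 41.9, 31.8 and 36.8 CPM in animals A, B and C and 54.8, 119.6 and 73.5 CPM in animals D, E and F. With a difference of -1.17 ± 0.24 (SE, adjusted p = 0.0313), LIG1 was the 1 member called lower in the 17-OHPC/P4 arm. That count is near the share of all genes, of which 1.46% were called lower. LIG1 no longer passed when animal B, C, E or F was left out on day 4. None was called higher, where 1.30% of all genes were. DESeq2 called 6 members lower there, MCM3, POLA1, POLE, RFC5, LIG1 and E2F2. The share of all genes that DESeq2 called lower is not given, so this count has no base to be set against. When animal A was left out on day 4, edgeR called 2, LIG1 and POLE.

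T and NK cell markers had lower estimates on day 7 as well. Their 8 genes summed to 48.4 to 106 CPM on control day 7 and 82.1 to 195 CPM on day 4 over the 6 animals, all 8 had lower estimates on day 7, and CD3E and IL2RB fell. In the P4 arm alone the sums were 48.4 to 61.2 CPM on control day 7 and 96.2 to 195 CPM on day 4, without overlap. In animal A the sum was not lower, at 84.0 CPM on control day 7 and 82.1 CPM on day 4. None of the 8 markers was at 0 in any library, and their part in the result was not tested. No member of the other 8 marker lists was called over both arms, but their sums varied too. Ciliated markers summed to 33.6 to 458 CPM on control day 7 and 93.2 to 1005 CPM on day 4. Macrophage markers summed to 71.7 to 303 CPM on control day 7 and 28.8 to 255 CPM on day 4.

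The treated cycle gave a second set of day 7 libraries against the same day 4 libraries, so the values below share their day 4 side with those above. In the P4 arm 20 members fell between day 4 and treated day 7 and 0 rose, where 3.16% of all genes fell and 4.32% rose. Of the 43, 42 were lower, with a median of -1.12, against -0.02 over all genes tested. For 30 members every treated library lay below every day 4 library, where 18.2% of all genes did and 16.5% lay above. By p the first were MCM3 at -2.01 ± 0.32 (SE, adjusted p = 0.00670) and MCM4 at -1.80 ± 0.33 (SE, adjusted p = 0.0111). Next came POLA1 at -1.29 ± 0.24 (SE, adjusted p = 0.0122) and GINS2 at -3.32 ± 0.63 (SE, adjusted p = 0.0126). ORC1 followed at -3.90 ± 0.78 (SE, adjusted p = 0.0141), then GINS4 at -2.41 ± 0.49 (SE, adjusted p = 0.0144), MCM6 at -2.50 ± 0.52 (SE, adjusted p = 0.0156) and MCM10 at -2.15 ± 0.45 (SE, adjusted p = 0.0158). RRM2 at -4.23 ± 0.93 (SE, adjusted p = 0.0185) and CDC6 at -3.66 ± 0.80 (SE, adjusted p = 0.0186) completed the first 10, and POLE2, at 0.14 (adjusted p = 0.894), had the only higher estimate. The T and NK cell markers summed to 65.9 to 69.8 CPM in these treated libraries and 96.2 to 195 CPM on day 4, with all 8 estimates lower and none called. MCM3 passed under each of the 22 alternatives tried here, but the count of 20 changed when single libraries were left out. Leaving out the day 4 library of animal E gave 1 and of F 2, and leaving out the treated library of animal F gave 1 and of D 8.

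In the 17-OHPC/P4 arm 0 members passed between day 4 and treated day 7, where 0.0255% of all genes fell and 0.657% rose. There 35 of 43 were lower, with a median of -0.60, against -0.12 over all genes tested. For 15 members every treated library lay below every day 4 library, as for 12.9% of all genes. None had every treated library above, where 10.9% did. The smallest p values were those of MCM7 at -0.81 ± 0.25 (SE, adjusted p = 0.116) and GINS4 at -1.28 ± 0.47 (SE, adjusted p = 0.167). Next came MCM4 at -0.85 ± 0.32 (SE, adjusted p = 0.172) and MCM3 at -0.82 ± 0.31 (SE, adjusted p = 0.181). DESeq2 called 2 members lower, ORC6 and MCM7. When animal A was left out on day 4, edgeR called 1, TK1, as higher on treated day 7 (log2 fold change 1.04, adjusted p = 0.0273). Lower in all 6 animals of both arms were 22 members, where 13.0% of all genes were.

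Against day 7 of the untreated cycle, neither injection moved a replication gene past the test. Over both arms 0 of the 43 were called (0 by DESeq2), and 0% of all genes were. Estimates were lower for 32 of 43, with a median of -0.11, against -0.01 over all genes tested. The smallest p values were those of ORC6 at -0.45 ± 0.17 (SE, adjusted p = 0.896) and GINS2 at -1.06 ± 0.41 (SE, adjusted p = 0.896). Next came RRM2 at -1.49 ± 0.59 (SE, adjusted p = 0.896) and the single-strand binding subunit RPA2 at -0.39 ± 0.19 (SE, adjusted p = 0.896). ORC6 had 5.28, 8.09, 7.37, 6.65, 4.39 and 4.04 CPM on treated day 7 and 8.64, 8.92, 9.15, 7.49, 6.06 and 8.26 CPM on control day 7 in animals A to F. ORC6, ORC1 and RRM2 were lower in the treated cycle in all 6 animals, where 2.16% of all genes were. Higher estimates, none called, were largest for CHAF1A, the other large subunit of the chromatin assembly factor, at 0.51 ± 0.37, POLE2 at 0.35 ± 0.34, CDC45 at 0.22 ± 0.23, E2F1 at 0.20 ± 0.31 and CHAF1B at 0.16 ± 0.29.

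In the P4 arm 0 members were called between treated and control day 7 (0 by DESeq2), where 0% of all genes were. RRM2 had 1.55, 3.25 and 1.11 CPM on treated day 7 and 5.87, 5.20 and 23.1 CPM on control day 7 in animals D, E and F. The treated values all lay below the control values, with the widest gap in animal F, and the estimate was -2.53 ± 0.86 (SE, adjusted p = 1). GINS2 had 1.06, 0.958 and 0.679 CPM on treated day 7 and 1.47, 1.66 and 4.98 CPM on control day 7, at -1.59 ± 0.59 (SE, adjusted p = 1). FEN1 had lower values in every treated library too, while CDC45 and RFC5 had higher ones, which made 3 members below and 2 above without overlap, where 2.41% and 3.34% of all genes were. ORC1 at -1.59 ± 0.72 (SE, adjusted p = 1) and ORC6 at -0.53 ± 0.24 (SE, adjusted p = 1) were the other members among the 4 with the smallest p.

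In the 17-OHPC/P4 arm 0 members were called as well (0 by DESeq2), where 0% of all genes were. RPA2 had 27.03, 32.4 and 27 CPM on treated day 7 and 56.9, 43.7 and 28.7 CPM on control day 7 in animals A, B and C, and its estimate was -0.58 ± 0.26 (SE, adjusted p = 0.990). PRIM1 at -0.37 ± 0.22 (SE, adjusted p = 0.990), ORC6 at -0.37 ± 0.24 (SE, adjusted p = 0.990) and CHAF1A at 0.74 ± 0.52 (SE, adjusted p = 0.990) followed. CHAF1A had 51.6, 13.95 and 20.2 CPM on treated day 7 and 18.7, 12.8 and 19.9 CPM on control day 7, so that animal A alone was high, and without its treated library the estimate was -0.01. ORC6 and PRIM1 were lower and E2F1 was higher in every treated library than in every control library, where 4.57% and 3.98% of all genes were. These counts, 2 below and 1 above, are near the shares of all genes. Within animals, the median log2 change of the 43 genes with treatment was -0.02 in animal A, -0.16 in B, -0.06 in C, -0.03 in D, 0.06 in E and -0.54 in F. Animal F stood lower than the others, with 33 of 43 members lower and RRM2 the farthest at -4.31.

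**Figure D5:**
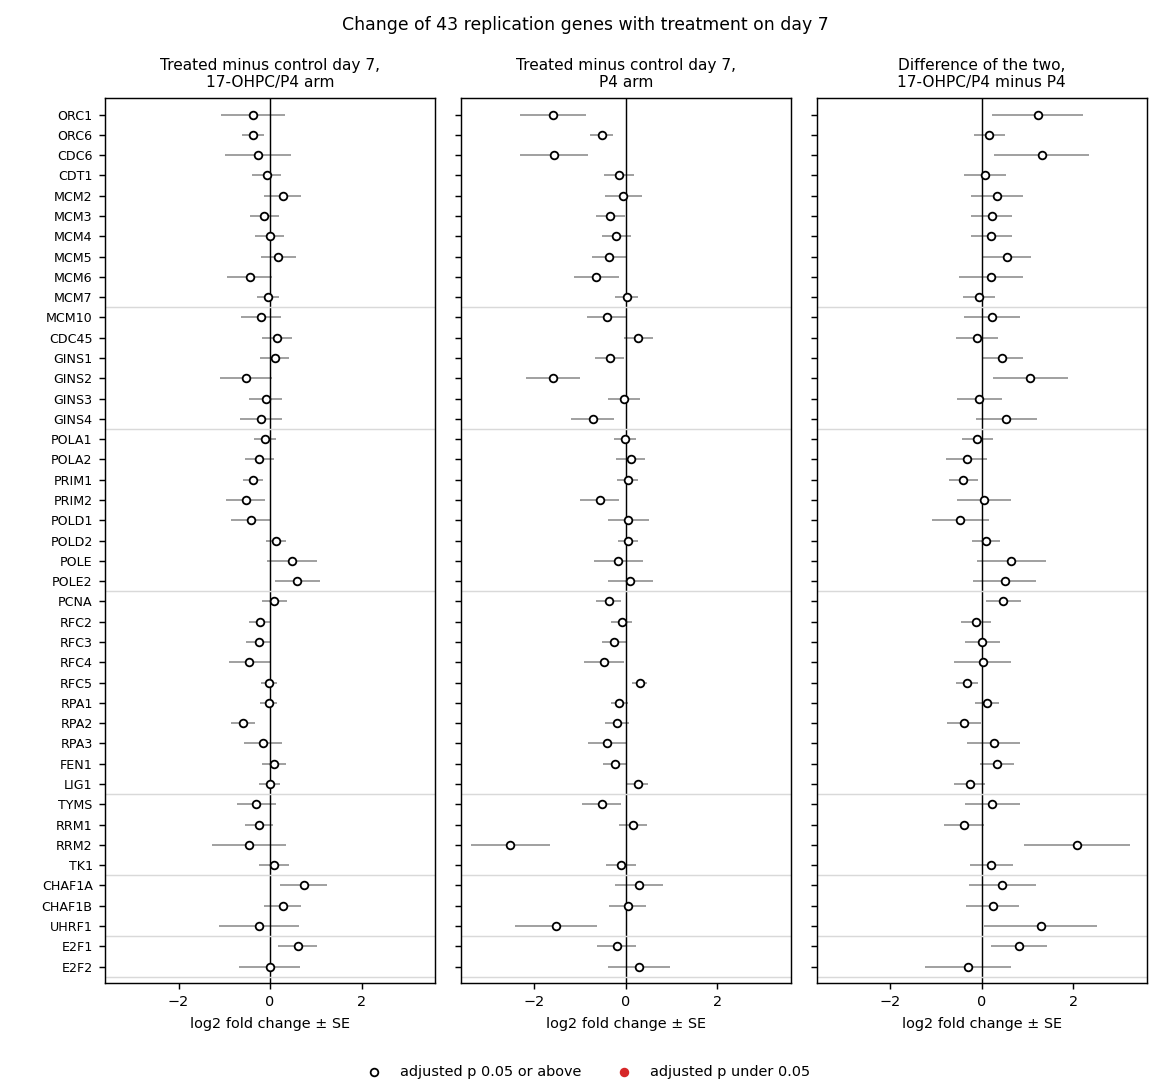
Log2 fold change between treated and control day 7 for each gene, with its standard error as a bar, by arm (17-OHPC/P4 at left, P4 in the middle) and as the difference of the 2 responses (17-OHPC/P4 minus P4). All points are open, since 0 members passed an adjusted p of 0.05 in any panel, and RRM2 in the P4 arm lies farthest from 0 at -2.53.

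The formulations were compared directly on treated day 7, as 43 differences between arms adjusted over all genes tested. The amounts injected were not matched, at 100 mg of 17-OHPC with 10 mg of P4 against 100 mg of P4, and the arms were different animals. None of the members was called (0 by DESeq2), where 0.0102% of all genes were. LIG1 was lower in the 17-OHPC/P4 arm, with 38.3, 44.8 and 33.98 CPM in animals A, B and C and 53.3, 61.1 and 64.8 CPM in animals D, E and F, a log2 difference of -0.61 (95% interval -1.12 to -0.11). This difference had the same sign as on day 4 before any injection. The log2 difference was 1.51 (95% interval 0.24 to 2.77) for GINS2, 1.96 (95% interval 0.15 to 3.77) for RRM2 and 0.46 (95% interval -0.06 to 0.98) for ORC6, with adjusted p from 0.448 for LIG1 to 0.604 for ORC6. For MCM7 the difference was -0.01 (95% interval -0.53 to 0.51), for PCNA 0.31 (95% interval -0.27 to 0.90) and for TYMS 0.43 (95% interval -0.48 to 1.34). These intervals do not show that the formulations act alike. CDC45 and LIG1 lay lower in every library of the 17-OHPC/P4 arm, where 7.08% of all genes did. MCM10, GINS2, GINS3, PRIM1, PCNA, RPA2 and TK1 lay higher, 7 members in all, where 6.33% of all genes did.

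Nor did the responses differ past the test when each arm was set against its own untreated day 7. The difference of responses called 0 members (0 by DESeq2) and 0% of all genes. It was 2.08 (95% interval -0.41 to 4.56) for RRM2 and -0.32 (95% interval -0.82 to 0.18) for RFC5. It was 0.81 (95% interval -0.50 to 2.11) for E2F1 and 1.06 (95% interval -0.68 to 2.81) for GINS2, the 4 with the smallest p, each with an adjusted p of 1. The interval for MCM7, -0.06 (95% interval -0.80 to 0.67), was among the narrower ones, and that for UHRF1, 1.28 (95% interval -1.35 to 3.92), was wide.

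Other genes of the pathway, listed by function and not among the 43, changed in both directions over the untreated cycle. Of 88 such genes 87 had a row, and over both arms 21 fell and 6 rose, where 4.28% of all genes tested fell and 6.27% rose. The count that rose is thus near the share of all genes, and the median log2 fold change was -0.33. Of 14 licensing and firing genes 5 fell. Among them were CDC7, the kinase that fires origins, at -0.86 ± 0.17 (SE, adjusted p = 0.00651) and TICRR, which helps bring CDC45 to origins, at -2.19 ± 0.47 (SE, adjusted p = 0.0112). The others were ORC3, MCM8 and RECQL4. Chromatin assembly and maintenance counted 5 of 9, which were DNMT1, the maintenance DNA methyltransferase, ASF1B, HELLS, NASP and RBBP7. Fork and processing genes counted 4 of 16 (TOP2A, WDHD1, DNA2 and ATAD2), nucleotide supply 3 of 21 (DTYMK, ATIC and IMPDH2) and cell cycle control 4 of 27 (CDK2, TFDP1, CCNE2 and FBXO5).

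The 6 that rose were CDKN1B, CDKN1C, SAMHD1, MCMBP, NME1 and POLD4. Of the 4 inhibitors of cyclin-dependent kinases listed, CDKN1B and CDKN1C rose, while CDKN1A stood at -0.11 ± 0.45 (SE, adjusted p = 0.904) and CDKN2C at -0.83 ± 0.40 (SE, adjusted p = 0.192). CDKN1B, which encodes p27, had 42.7, 34.9, 29.1, 95.2, 62.3 and 70.6 CPM on control day 7 and 35.9, 24.4, 30.02, 28.04, 21.5 and 23.9 CPM on day 4 in animals A to F. It was higher on day 7 in 5 of 6 animals and slightly lower in animal C, and rose by 0.94 ± 0.26 (SE, adjusted p = 0.0339). CDKN1C, which encodes p57, rose by 1.29 ± 0.38 (SE, adjusted p = 0.0444). SAMHD1, an enzyme that breaks down deoxynucleotides, had 314, 195, 98.4, 265, 275 and 207 CPM on control day 7 and 122, 125, 60.6, 49.4, 46.04 and 53.7 CPM on day 4. It was higher on day 7 in every animal and rose by 1.65 ± 0.39 (SE, adjusted p = 0.0176). MCMBP, which binds MCM proteins, rose by 1.40 ± 0.36 (SE, adjusted p = 0.025). These genes were described after their values were seen. With treatment, none of the 87 was called over both arms or in either arm.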

How the data were processed

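The count table was deposited by the authors as raw counts per gene, not normalized. Per the submitters' processing notes, cutadapt, FastQC, STAR, featureCounts and DESeq2 were used. For genome build, annotation, strand setting and counting of read pairs nothing is stated in the sources used here. Of counts from 1 to 20, 78.3% were even, against 50.8% of those above 1000. On the reference annotation used for names (ARS-UCD2.0), 9 members overlap another protein-coding gene. They are CDT1, GINS1, RFC4, RFC5, RPA2, RPA3, FEN1, TYMS and UHRF1. With genes of any kind counted, 17 members overlap another gene. Overlap was taken over whole genes, without regard to strand or exons, and whether reads were shared was not tested.

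From these counts, edgeR 4.0.16 in R 4.3.3 (limma 3.58.1) fitted 1 mean per group over all 18 libraries, with a quasi-likelihood F test, TMM scaling (0.881 to 1.16), filterByExpr (minimum count 10, minimum total 15) and robust dispersion. P-values were Benjamini-Hochberg adjusted over all 19638 genes tested, called under 0.05. CPM are counts scaled to TMM-adjusted library totals, and changes within an animal are of log2 CPM with a prior count of 2. This main fit, and so the p-values given unless another fit is named, did not use the pairing of samples by animal. Without a block for the animal the biological coefficient of variation came to 51.4%, with it to 39.4%. The table held 0 columns of other samples, and no 2 libraries were identical. The 18 within-group pairs differed beyond sampling noise, with chi-square values of 58.2 to 389 per gene. Animal letters mark the same animal in all its samples, so the replicate numbers pair samples. The deviations from group means correlated with a median of 0.37 (-0.07 to 0.72) over 18 same-animal pairs and -0.14 over 36 pairs of different animals. Taking out the group means ties these medians to each other, so the value for different animals is not separate evidence of pairing. Alternatives were RLE scaling, no filter, DESeq2 1.42.0, the block, and each library left out, and each animal left out, the last chosen after seeing the data.

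The members, the gene lists and the tests were chosen with earlier results of these data known. Given in every library are MCM2, MCM6, CDC6, CDC45, POLE2, PCNA, RRM2, TYMS, TK1, E2F1, UHRF1 and the members of lowest and highest mean level. In each comparison up to 10 called members of smallest p are named, or, where none was called, 4, and up to 5 that went against the rest, and further called members of the control cycle. The fitting was tested on simulated data without an animal effect, so that test does not speak to the pairing of samples.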

Additional observations from a re-analysis of the deposited data

How the results depend on the processing

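Over both arms, the 17 members that fell in the control cycle became 17 with RLE scaling, 12 without the filter, 24 with DESeq2 and 19 with the animal as replicate block, 5 to 26 with single libraries left out, and 1 to 19 with single animals left out (4 without animal A, 6 without B, 9 without C, 6 without D, 1 without E). In the P4 arm the 14 became 12, 10, 23 and 18 under the same 4 alternatives and 0 to 23 with single libraries left out. Between day 4 and treated day 7 the 20 of the P4 arm became 19, 19, 28 and 24, and 1 to 23 with single libraries left out, while the 0 of the 17-OHPC/P4 arm became 2 with DESeq2 and 0 to 1 without single libraries. The 1 member that differed between the arms on day 4 became 6 with DESeq2 and 0 to 2 without single libraries. The block could not be fitted for the comparisons between arms on day 4 and on treated day 7, where no animal is shared. The block added no call with treatment, where each alternative run gave 0. Of the alternative values of the members named by the rule in their own comparison, 1446 kept their direction and their side of the threshold, 213 kept the direction and lost the call, 1 gained it (MCM7, day 4 to treated day 7 in the 17-OHPC/P4 arm, with DESeq2) and 1 reversed, an uncalled CHAF1A at -0.0073 without the treated library of animal A (up to 1.06 without other libraries). Outside that rule, other members gained calls too. Among these were PRIM1 and UHRF1 over the control cycle with the block, TK1 as a rise when animal A was left out on day 4 (0.52 over both arms, 1.04 for treated day 7), ORC6 with DESeq2 for treated day 7 in the 17-OHPC/P4 arm, and MCM3, POLA1, POLE, RFC5 and E2F2 with DESeq2 between the arms on day 4. Calls over all genes under these alternatives are not given, and the causes were not tested. RLE scaling moved the median of all genes by at most 0.05. With 3 animals per group the p-values rest on few samples, and the least abundant members rest on counts as low as 9.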

Other observations

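The members differed widely in how much they varied over the 18 libraries. After UHRF1, the ratio of the highest to the lowest library was 47.7 for CDC6, 46.8 for RRM2, 45.8 for ORC1 and 22.4 for E2F2, and it was 2.07 for RFC2, 1.98 for RPA1 and 1.88 for POLD2. The treated library of animal F held the lowest value of 8 members, UHRF1, CDC6 and RRM2 among them. Partners in 1 complex also differed in range. RRM1 spanned 3.56-fold and RRM2 46.8-fold, POLD2 1.88-fold and POLD1 15.95-fold, and ORC6 2.65-fold and ORC1 45.8-fold.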
